A study of Drosophila melanogaster with 15 samples.

Results

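The proteasome genes of Drosophila melanogaster embryos were described across 15 arrays, 3 for each of 5 groups. Members were chosen by their gene symbol alone: a probe set had to carry exactly 1 symbol that began with Prosalpha or Prosbeta, or with Rpn or Rpt and a digit, and each gene was represented by its brightest probe set. This gave 40 genes of the 11981 named by 1 symbol, with 1 probe set each. The core particle was represented by 12 genes (6 of the alpha ring and 6 of the beta ring), the cap by 14 (10 non-ATPase subunits and 4 ATPases), and 14 symbols that end in T or R were testis copies. The filter on dim probe sets was passed by 29 members: all 12 core genes, all 14 cap genes and 3 testis copies.

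The embryos came from w[1118] flies, which carry a mutant white gene, and were frozen at an age of 3-4 hours. Each sample was a pool of embryos from several egg-laying bottles kept at 23°C, and all 5 groups shared the strain, the age and the temperature. The control embryos were labelled with no irradiation, and the other 4 groups had received 500 µGy of gamma rays at 22.4 mGy/h 5, 30, 60 or 90 min before freezing, so that the time since exposure and the age at exposure cannot be told apart. Each group held biological replicates A, B and C, and the labels do not say which cages, days or hybridizations a letter stands for.

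The proteasome is the large protease that degrades proteins tagged with ubiquitin. Its core particle is a barrel in which outer rings of alpha subunits gate the entrance and inner rings of beta subunits hold the cutting sites, and its cap recognises ubiquitin, removes it and threads the substrate into the barrel with a ring of ATPases. The early fly embryo receives proteasomes and their mRNAs from the mother and uses regulated degradation to time the cell cycle and the handover to its own genome. In flies, several subunits have a second gene copy used in the male germline, where sperm form. Prosalpha1 shared its probe set with its copy Prosalpha1R and was therefore outside the rule; that probe set read 14674, 15777 and 15489 in controls A, B and C. Prosbeta1, Rpn9, Rpn10, Rpt1 and Rpt6 were not analysed here. The probe sets of Prosbeta5, Prosbeta7, Rpn6, Rpn13 and Rpn12R carry the suffix by which the manufacturer marks probes shared between transcripts, so their values are less certain.

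Some arrays stood apart in ways the groups do not explain. The median intensity per array lay between 29.0 and 43.3. The highest intensity on an array was 29531 to 37823 in the A arrays and 49492 to 58802 in the C arrays, with 60 min B (44209.9) and 90 min B (51915) above the other B arrays. The same arrays had the higher spike-in controls. RNA that the mother loads into the egg also differed: alphaTub67C, a maternal alpha-tubulin, read 3482 in control A, 3176 in control C and 3546 in 90 min B, and at most 811 in the other 12 arrays. Other maternal markers did not all set 90 min B apart. There osk and otu read 605 and 202, against 3408 and 1551 in 30 min A, while nanos and gnu read 8646 and 5866 against 2944 and 3104. The mean log2 value over the 13 markers was 11.4 in control A, 11.2 in control C, 10.7 in 90 min B and 10.6 in 30 min A. All 13 maternal markers were above the array median in every array, and their summed intensity was 16497 to 56492 in the controls and 7974 to 38775 in the irradiated arrays. The 8 measured markers of an embryo of this age, among them sna and twi of the mesoderm, were above the array median in every array. In whole embryos, fewer cells of a type and less RNA per cell cannot be told apart.

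All 26 core and cap genes were bright. Each lay above the array median on every one of the 15 arrays, and their mean log2 intensities lay between the 81.3 and 99.4 percentile marks of all probe sets. Apart from such positions beside the array median or among all probe sets, levels of different probe sets are not compared here. Each probe set has its own affinity, so these positions describe signal and not amounts of RNA. The genes differed in how steady they were: the highest array exceeded the lowest by 1.55 times for Prosbeta2, one of the catalytic subunits, by 1.63 times for the beta ring gene Prosbeta4, and by 9.05 times for the lid gene Rpn5. Within groups the median SD on the log2 scale was 0.504 over the core genes and 0.456 over the cap genes, beside 0.522 over the 3503 probe sets at least as bright as the dimmest core or cap gene.

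**Figure D1:**
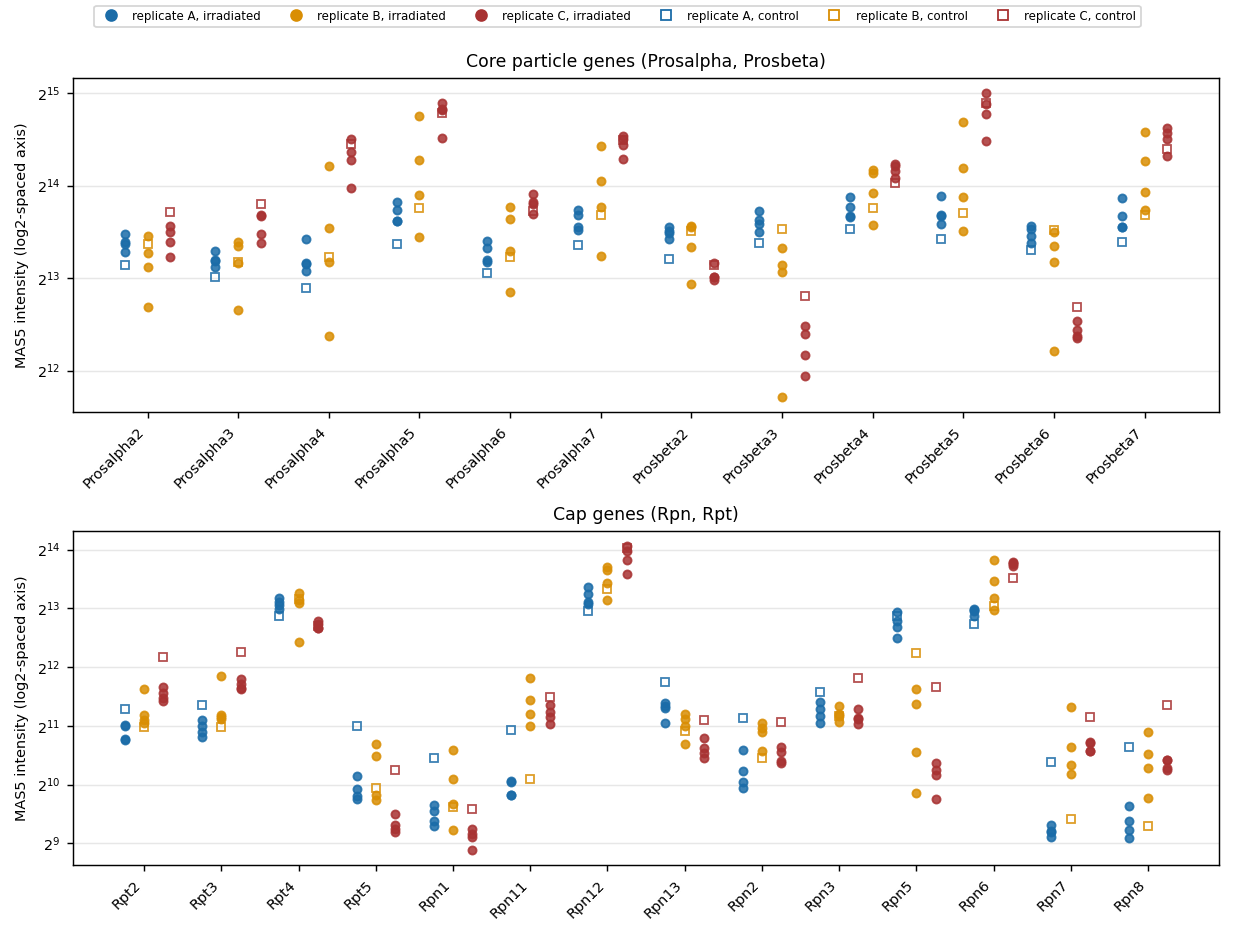
MAS5 intensity of the 12 core genes (upper panel) and the 14 cap genes (lower panel) on each of 15 arrays, on an axis spaced by log2; open squares are controls, filled circles irradiated arrays, and colours the replicate letters. Rpn5 is spread most widely, with a highest array 9.05 times the lowest, and Prosbeta2 least, at 1.55 times.

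No proteasome gene was called after irradiation by limma's test, which does not show that none changed. At 5, 30, 60 and 90 min against control, in the 4 irradiated groups pooled (the mean of their group means, weighted equally) against control, in the slope over the 4 times and in the test of any difference between groups, 0 of 29 members passed an adjusted p of 0.05, against a background of 0% of 11261 probe sets in each of these 7 comparisons. None of the members reached even an unadjusted p of 0.05 in any of them, while over all probe sets the unadjusted count was 296, 165, 278 and 180 at the 4 times, 404 in the pooled groups, 150 in the slope and 94 in the test of any difference. With the replicate letter as a block, 0 members passed as well, 4 had an unadjusted p under 0.05 in the pooled irradiated groups, and the smallest adjusted p in any of the 7 comparisons was 0.141, for Rpn5. Across the 25 alternative settings 0 members passed in any comparison, and at most 5 had an unadjusted p under 0.05. With the block and in the other settings, the share of all probe sets under an unadjusted p of 0.05 was not counted. The unadjusted member counts of those fits therefore have no background and are not read as a result about the members.

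In the pooled irradiated groups the medians of the core and the cap genes lay on opposite sides of 0, with no gene called. The median difference of the 12 core genes was 0.11 on the log2 scale, with 8 above 0, and that of the 14 cap genes was -0.28, with 11 below 0, beside a median of 0.04 and a share of 53.9% above 0 over all probe sets tested. By time the core median was 0.18, -0.07, 0.17 and 0.21 at 5, 30, 60 and 90 min, and the cap median -0.27, -0.21, -0.37 and -0.23. These 4 times share the same 3 control arrays. The core direction turned with quantile normalization (-0.08, 3 of 12 above 0), with the spike-in level as a covariate (-0.06) and without control A (-0.11). The cap median was -0.02 without control C and turned to 0.11, with 10 of 14 above 0, when the 3 arrays with the highest alphaTub67C were all left out.

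**Figure D2:**
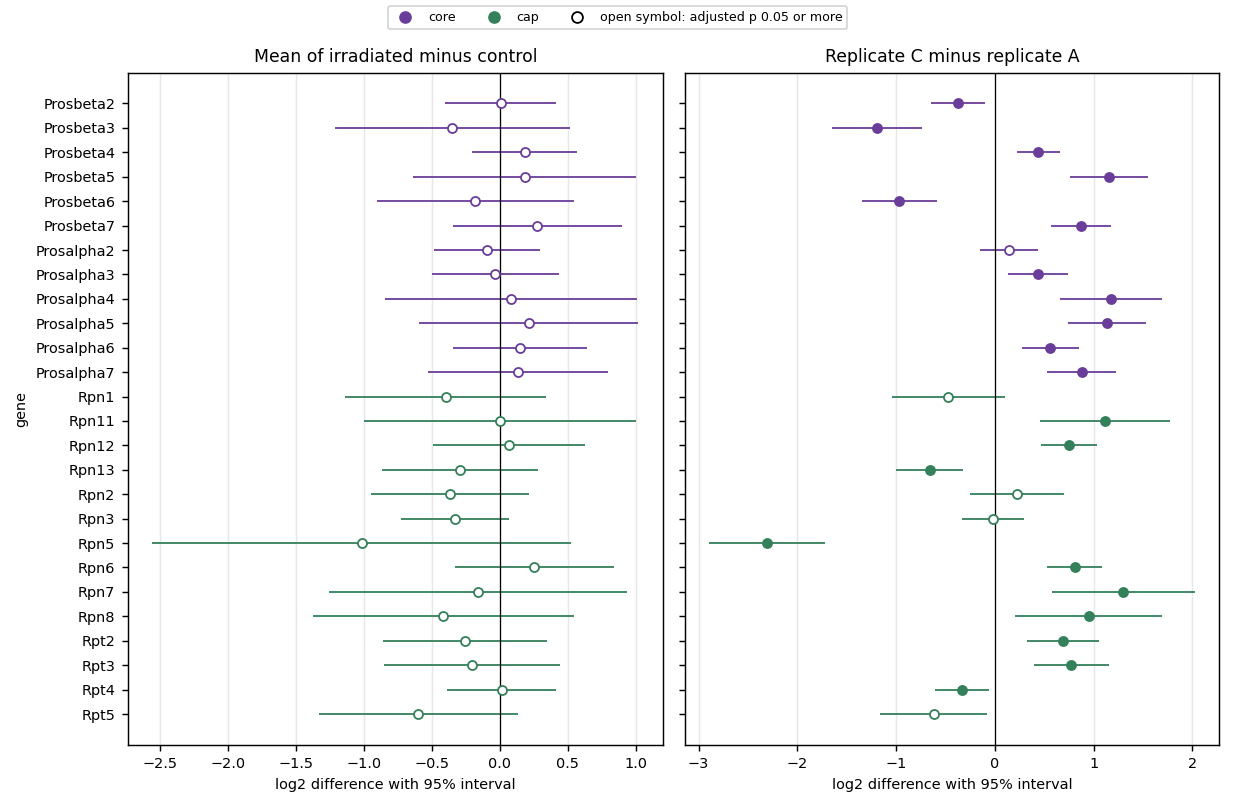
Log2 difference of each core and cap gene with its 95% interval from limma, for the pooled irradiated groups minus control (left) and for replicate C against replicate A (right); filled symbols passed an adjusted p of 0.05. On the left all 26 intervals include 0, and Rpn5 has the widest; on the right 21 of the 26 symbols are filled, with Rpn5 lowest at -2.31.

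Among the alpha ring genes, which form the gated entrance of the barrel, differences from control were small beside their errors. Prosalpha2 read 9021, 10579 and 13425 in controls A, B and C, 11412, 9910.2 and 12130.3 at 5 min, 10548, 6577 and 11530.0 at 30 min, 10709, 11267 and 10724 at 60 min, with 9996, 8930.4 and 9570.1 90 min after exposure. All irradiated arrays lay within the range of the controls except 30 min B and 90 min B, which lay below it. Prosalpha2 differed by -0.10 ± 0.18 (SE, 12 against 3 arrays) in the pooled irradiated groups, with a 95% interval of -0.48 to 0.29 and an adjusted p of 0.984 in limma. Prosalpha6 gave 0.15 ± 0.23, Prosalpha7 0.13 ± 0.31 and Prosalpha3 -0.04 ± 0.22. Prosalpha4 and Prosalpha5 had the widest intervals of the ring, -0.84 to 1.01 and -0.59 to 1.02, and the C arrays of both lay above all A arrays.

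The beta ring holds the cutting sites. Prosbeta2, the subunit with trypsin-like activity, read 9484, 11665 and 9053 in controls A, B and C, 11985, 12008 and 8276 at 5 min, 11469, 10347 and 8268 at 30 min, 11696, 12104 and 8099.8 at 60 min, with 10979, 7820.0 and 9207 90 min after exposure. The C arrays, 90 min B and control A lay at the lower end, and the range of the irradiated arrays enclosed that of the controls. Its difference in the pooled irradiated groups was 0.01 ± 0.19, with an interval of -0.40 to 0.41. Prosbeta5, the subunit with chymotrypsin-like activity, read 11008, 13304 and 30376 in controls A, B and C, with a lowest, median and highest irradiated value of 11695, 16919 and 32672. Its difference was 0.18 ± 0.38, with an adjusted p of 0.985 in limma. Prosbeta4 and Prosbeta7, which do not cut, exceeded the control of their letter in 11 and 11 of 12 irradiated arrays, and differed by 0.18 ± 0.18 and 0.28 ± 0.29. Neither gene was above it in all 12, which was the case for 4.24% of the 11261 probe sets tested. The share above it in 11 was not counted. Prosbeta3 differed most within the ring at 90 min, by -0.85 ± 0.51 (adjusted p = 0.998 in limma), where it read 11572, 3360.0 and 3945 in A, B and C against 10642, 11818 and 7191 in the controls. The 90 min B and C arrays were below all controls, while 90 min A lay within their range. Prosbeta6 differed by -0.18 ± 0.34 in the mean and by -0.52 ± 0.43 at 90 min. Over the 4 times the slope per 60 min was -0.51 ± 0.34 for Prosbeta3 and -0.32 ± 0.28 for Prosbeta6.

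Of the 4 ATPases that pull substrates into the barrel, Rpt5 had the largest difference from control. It read 2049, 984 and 1220.4 in controls A, B and C, 859, 1438 and 587 at 5 min, 1127, 1648 and 633 at 30 min, 889, 909 and 606 at 60 min, with 973, 855 and 721 90 min after exposure. Control A was above every other array, and the irradiated A and C arrays lay below their own controls, while 5 min B and 30 min B lay above control B. Rpt5 differed by -0.60 ± 0.34 in the pooled irradiated groups (interval -1.33 to 0.13, adjusted p = 0.978 in limma) and by -0.59, -0.35, -0.78 and -0.68 at the 4 times. Rpt2 and Rpt3, ATPases of the same ring, differed by -0.26 ± 0.28 and -0.20 ± 0.30. Control C was their highest array, at 4608 and 4879.5. Rpt4 ran from 5496 to 9788 over 15 arrays, and differed by 0.01 ± 0.19, with a slope of -0.24 ± 0.16 per 60 min.

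The base of the cap also holds scaffold subunits. Rpn1, a docking platform for ubiquitin shuttles, read 1399.5, 787 and 768 in controls A, B and C and 472, 647 and 1546 as the lowest, median and highest of the irradiated arrays, a difference of -0.40 ± 0.34. Rpn2, its partner scaffold, read 2239.5, 1407 and 2142 in the controls and 979.9, 1507 and 2105 in the irradiated arrays, a difference of -0.37 ± 0.27. Rpn13, a ubiquitin receptor held by Rpn2, read 3427, 1922 and 2198 in the controls and 1405, 2075 and 2694 in the irradiated arrays, a difference of -0.30 ± 0.27. Control A was the highest array for Rpn2 and Rpn13, and for Rpn1 it was exceeded by 30 min B alone, at 1546. The irradiated arrays overlapped the controls in all 3 genes.

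The lid, which carries the enzyme that removes ubiquitin, contained the member with the largest difference from control. Rpn5, a scaffold subunit of the lid, read 7444, 4822 and 3232 in controls A, B and C, 6534, 2636 and 1317 at 5 min, 7823, 3168 and 1216 at 30 min, 5738, 1508 and 1152 at 60 min, with 7045, 922 and 865 90 min after exposure. Within letters B and C every irradiated array was below the control, whereas in letter A the 30 min array was above it and the A arrays exceeded all others. Rpn5 differed by -1.02 ± 0.72 in the pooled irradiated groups (interval -2.55 to 0.52, unadjusted p = 0.177, adjusted p = 0.978 in limma), and by -0.78, -0.65, -1.18 and -1.46 at the 4 times. With the replicate block the error of the mean difference was 0.28 in place of 0.72, and the adjusted p was 0.141. The within-letter differences were -0.14 in A, -1.38 in B and -1.52 in C. The letter did not pair 90 min B with control B (correlation of deviations -0.299, beside 0.501 in A and 0.311 in C at 90 min). In the block and in the within-letter value of B, the place of that array rests on the label alone.

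Rpn3, another lid scaffold, had the smallest unadjusted p among members in the mean contrast (0.0935). It read 3043, 2293 and 3601 in controls A, B and C, 2111, 2344 and 2483 at 5 min, 2702, 2587 and 2211 at 30 min, 2293, 2135 and 2257 at 60 min, with 2491, 2299.9 and 2089 90 min after exposure. Controls A and C were the highest of all 15 arrays, and control B lay among the irradiated ones. Rpn3 differed by -0.33 ± 0.18 (interval -0.73 to 0.06, adjusted p = 0.978 in limma), and by 0.02 once control A, control C and 90 min B were left out. Rpn6, which clamps the lid to the core, lay the other way, with a difference of 0.25 ± 0.27. It exceeded the control of its letter in 11 of 12 irradiated arrays. The share of all probe sets that did so in 11 was not counted, and the arrays of a letter share their control. Rpn12, which joins the lid last, differed by 0.07 ± 0.26.

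Rpn11, the subunit that removes ubiquitin, its partner Rpn8 and the lid subunit Rpn7 lay on opposite sides of the control in different letters. In letter A, Rpn11 read 1952 in the control and 901, 1055, 905 and 1068 at 5, 30, 60 and 90 min. In letter B it read 1087 in the control and 2363, 2790.3, 2044 and 3591 at 5, 30, 60 and 90 min. In letter C it read 2862 in the control and 2423, 2102, 2626 and 2266 at 5, 30, 60 and 90 min. All irradiated arrays were below the control in letters A and C and above it in letter B, and the mean difference was -0.00117 ± 0.46. Rpn8 was 1588 in control A with 542 to 797 in the irradiated A arrays, and 629 in control B with 877 to 1913 in the irradiated B arrays. Rpn7 showed the same order, at 1341 against 552 to 637 in A and 681 against 1155 to 2553 in B. The mean differences of Rpn8 and Rpn7 were -0.42 ± 0.45 and -0.16 ± 0.51. The order was not particular to these lid genes. In Rpn2, Rpt2 and Rpt3, too, all irradiated arrays were below the control in letters A and C and above it in letter B. The same held for Sem1, TER94, Npl4, Ufd1 and p47, genes that work with the proteasome and are outside the members. The share of all probe sets with this order was not counted, so it is not read as a trait of cap genes.

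**Figure D3:**
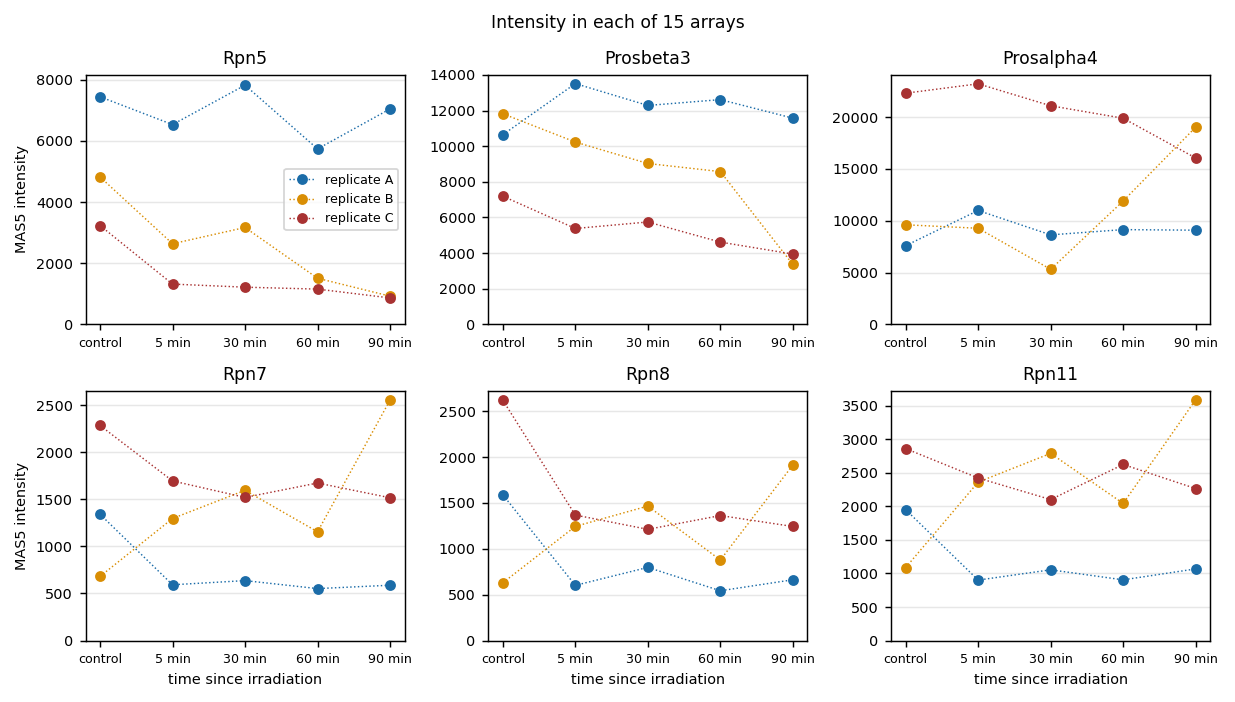
MAS5 intensity of Rpn5, Prosbeta3, Prosalpha4, Rpn7, Rpn8 and Rpn11 in the control and at 5, 30, 60 and 90 min, 1 point per array, coloured by replicate letter; dotted lines join arrays of a letter and are no time course of 1 sample. Letter A is highest for Rpn5 at every time and for Prosbeta3 at every time but the control, and letter C for Prosalpha4 at every time but 90 min, while in Rpn7, Rpn8 and Rpn11 the irradiated points of letter A lie below their control and those of letter B above theirs.

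Controls A and C, with high maternal RNA, also had many of the highest cap values of their letters, and control B did not. Control A was the highest of the 5 A arrays for 10 of 14 cap genes, against 16.4% of the 3503 equally bright probe sets. Control C was the highest C array for 11 of 14 (30.7% of bright probe sets), and 90 min B the highest B array for 7 of 14 (44.7%). Control B was the highest B array for 1 of 14 cap genes (25.5%) and the lowest for 6 of 14 (27.7%). Its alphaTub67C of 343 was like that of the irradiated arrays other than 90 min B. Within its own letter it was above the 204, 107 and 237 of 5, 30 and 60 min B. Its mean log2 value over the maternal markers was 9.68, also above the 8.94, 8.40 and 8.98 of those arrays. Among the core genes, control A was the highest A array for 0 of 12 and the lowest for 12 of 12, where 56.6% of bright probe sets were also lowest. Control C was the highest C array for 4 of 12 core genes, 90 min B the highest B array for 8 of 12, and control B for 2 of 12. The oocyte gene mtrm, an inhibitor of Polo kinase, read 6731, 1352 and 5863 in controls A, B and C and 3877 in 90 min B. Leaving out control A, control C and 90 min B turned the cap median as given above, with 1 control array left. With the maternal marker level as a covariate the cap median was -0.22 and the core median 0.19, with 0 of 29 members called in either fit. What part the maternal RNA has in the cap differences was not tested beyond these fits, which were chosen after the values were seen.

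**Figure D4:**
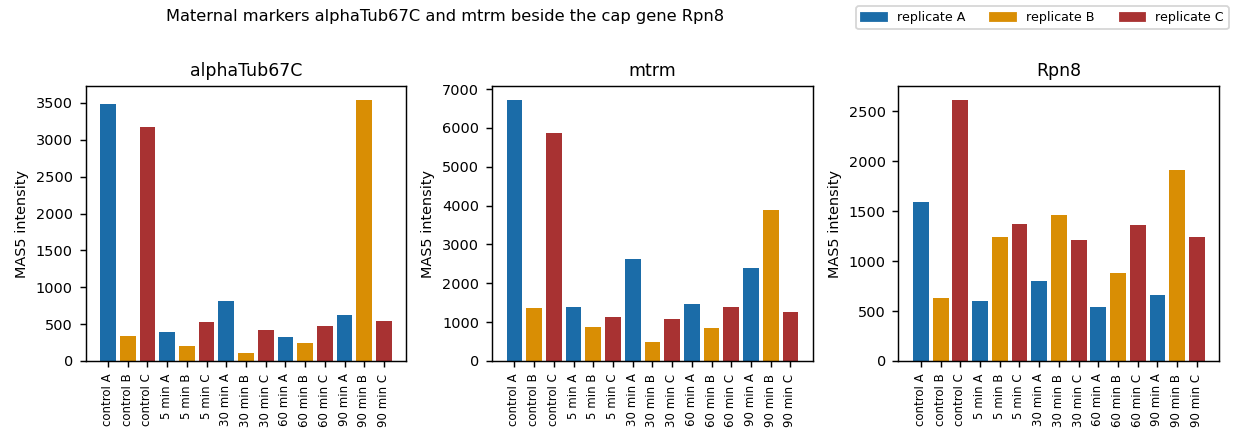
MAS5 intensity (bars, linear axis from 0) of the maternal genes alphaTub67C and mtrm and of the cap gene Rpn8 on each of 15 arrays, coloured by replicate letter. Control A, control C and 90 min B are the 3 tallest bars for alphaTub67C and mtrm, and each is the tallest of its own letter for Rpn8.

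Taken by letter, the irradiated minus control difference of the core and cap genes ran in different directions. In letter A all 12 core genes were higher on average after irradiation (median 0.25) and 11 of 14 cap genes were lower (median -0.43). In letter B 7 of 12 core and 12 of 14 cap genes were higher (medians 0.13 and 0.27). In letter C 9 of 12 core and 12 of 14 cap genes were lower (medians -0.10 and -0.54). The shares of all probe sets that were higher or lower within a letter were not counted. These counts therefore have no background and are not read as a result about the members. Control A was the lowest A array for 56.6% of the bright probe sets as well. The difference between the core and the cap score, each a mean over genes of log2 values centred per gene, was -0.67, 0.10 and -0.18 in controls A, B and C. It was 0.06 ± 0.29 (SD, n = 12) in the irradiated arrays against -0.25 ± 0.39 (n = 3) in the controls, a gap of 0.31 that was smaller than the control SD. The lowest array was -0.68 (30 min B) and the highest 0.35 (30 min C), both irradiated. The gap was 0.79 within letter A, -0.28 within B and 0.42 within C. With quantile normalization the gap was 0.15, and 0.72, -0.55 and 0.27 within A, B and C. The core score alone differed by 0.01 within B as deposited and by -0.21 with quantile normalization.

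Many members were called between replicate letters, where none was called between treatment groups. Between letters C and A, fitted with the groups as terms on 5 arrays each, 22 of 29 members passed an adjusted p of 0.05 in limma. Of these, 16 were higher in C and 6 lower. The background was 45.6% of all probe sets (20.8% higher and 24.8% lower), and 70.8% of the 3503 bright ones (40.8% higher and 29.9% lower), and the 21 of 26 core and cap genes called are to be read against the latter. Core genes were called in 11 of 12 cases, 8 higher and 3 lower, and cap genes in 10 of 14, 7 higher and 3 lower. With the spike-in level of each array as a covariate 0 of 29 members were called in limma, 2 had an unadjusted p under 0.05, and 96 of all probe sets were called. The letters also differed in other respects: sna read 1644 to 2873 in the A arrays and 606 to 968 in the C arrays. Obp99a, an odorant-binding protein gene, read 481 to 1781 and 3009 to 18472. Array signal, embryo stage and letter cannot be told apart here.

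Of the 29 members tested, Rpn5 had the largest difference between letters C and A. It was 5738 to 7823 in the A arrays, 922 to 4822 in the B arrays and 865 to 3232 in the C arrays. No C array reached the lowest A array, but the share of all probe sets separated in this way was not counted. Rpn5 was lower in C, with a C minus A difference of -2.31 ± 0.27 (adjusted p = 0.00019 in limma). The beta ring genes Prosbeta3 and Prosbeta6 went the same way, with 10642 to 13513 and 10104 to 12109 in A against 3945 to 7191 and 5234 to 6582 in C. Their differences were -1.20 ± 0.21 (adjusted p = 0.000649) and -0.97 ± 0.17 (adjusted p = 0.000753) in limma. The other genes called lower were the ubiquitin receptor gene Rpn13 (-0.66 ± 0.16), the catalytic Prosbeta2 (-0.37 ± 0.13) and the ATPase gene Rpt4 (-0.33 ± 0.13).

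Most core genes lay the other way. Prosbeta5 was 11008 to 15142 in the A arrays and 22907 to 32672 in the C arrays, without overlap. How many other probe sets had no overlap was not counted. Prosbeta5 was higher in C by 1.16 ± 0.18 (adjusted p = 0.000361 in limma). Prosalpha5 (10577 to 14474 against 23351 to 30488) and Prosalpha4 (7597 to 10994 against 16061 to 23225) were higher by 1.13 ± 0.18 and 1.17 ± 0.24. Prosalpha7, Prosbeta7, Prosalpha6, Prosbeta4 and Prosalpha3 were higher by 0.88, 0.87, 0.56, 0.44 and 0.44. Prosalpha2 was the core gene that did not pass (0.15 ± 0.14, adjusted p = 0.413 in limma). Subunits of the same ring differed in opposite directions between the letters: within the beta ring, Prosbeta5 and Prosbeta7 were called higher and Prosbeta3 and Prosbeta6 lower. With quantile normalization the core median between C and A was 0.04 in place of 0.50, with 5 core genes called higher and 4 lower.

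In the cap, Rpn7 (1.30 ± 0.34), Rpn11 (1.12 ± 0.30) and Rpn8 (0.95 ± 0.34) were higher in C than in A, as were Rpn6 (0.81 ± 0.13), Rpn12 (0.75 ± 0.13), Rpt3 (0.77 ± 0.18) and Rpt2 (0.69 ± 0.17). Rpn6 was 6796 to 8138 in A and 11763 to 14076 in C, and Rpn12 7965 to 10539.6 and 12273 to 17006, in both cases without overlap. The share of bright probe sets without overlap was not counted, so this is not read as a result about the members. Rpn1, Rpn2, Rpn3 and Rpt5 did not pass, with differences of -0.47, 0.22, -0.02 and -0.62. Between letters B and A only 3 of 29 members were called, beside 14.7% of all probe sets (7.4% higher and 7.26% lower) and 20.4% of bright ones. Rpn5 was lower in B (-1.62 ± 0.27, adjusted p = 0.00471 in limma), and Rpn11 (0.97 ± 0.30, adjusted p = 0.0495) and the testis copy Rpt3R (0.98 ± 0.27, adjusted p = 0.0313) were higher in limma. The count between B and A moved from 1 to 8 when single arrays were left out, with 8 without control B, 5 without control A, and 1 without any of 5 min A, 5 min B, 30 min A, 60 min A, 60 min B or 90 min A taken singly. It was 1 with 60 and 90 min B both left out and 17 with the maternal marker level as a covariate.

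The testis copies were dim: 1 of 14 was above the array median on all 15 arrays, beside 26 of 26 core and cap genes. Because probe sets differ in affinity, this compares signal and not amounts of RNA. The geometric mean over 15 arrays lay below the lowest array median in 13 of 14 genes, and 5 of them (Prosalpha4T1, Prosbeta4R1, Prosbeta5R1, Prosbeta5R2 and Rpn13R) were below the median of every array. Prosbeta5R2, the copy of the chymotrypsin-like subunit, read 1.77, 1.57 and 13.0 in controls A, B and C, 2.02, 0.96 and 5.67 at 5 min, 2.32, 2.62 and 23.4 at 30 min, 1.48, 1.74 and 2.14 at 60 min, with 3.60, 3.85 and 1.76 90 min after exposure. Control C and 30 min C stood above the rest, and detection calls were not used here, so no order is read from values this low. Over 15 arrays Prosbeta5R1 ran from 1.46 to 15.0, Prosalpha6T from 1.13 to 39.2, Rpn13R from 1.59 to 11.6, Prosbeta4R2 from 0.92 to 41.1 and Prosbeta4R1 from 1.13 to 27.4. Prosalpha4T1 ran from 1.63 to 16.6, Rpn12R from 1.53 to 41.3, Prosalpha4T2 from 3.56 to 42.2, Prosbeta2R1 from 4.17 to 49.3 and Rpt4R from 4.40 to 50.7. None of these 11 genes passed the filter, whose bound was an intensity of 15.4. Just outside it stood Rpt4R and Prosbeta2R1 with geometric means of 14.9 and 14.0, and just inside it Prosalpha3T with 21.7.

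Of the 3 testis copies tested, Prosalpha3T (4.87 to 47.8) and Prosbeta2R2 (5.31 to 64.7) crossed the array median from array to array. Prosbeta2R2 differed by 0.74 ± 0.61 and Prosalpha3T by 0.31 ± 0.55 in the pooled irradiated groups, both with an adjusted p of 0.978 or more in limma. Rpt3R, the copy of the ATPase gene Rpt3, was the exception: it was above the array median on all 15 arrays and read 40.3, 69.8 and 96.2 in controls A, B and C, 58.9, 165 and 239.8 at 5 min, 62.3, 132 and 127 at 30 min, 71.2, 136 and 138 at 60 min, with 57.6, 92.4 and 106 90 min after exposure. Control A was the lowest array, 5 min C the highest, and each irradiated array was above its same-letter control, as were those of 4.24% of all probe sets tested. Rpt3R differed by 0.69 ± 0.46 (interval -0.30 to 1.68, adjusted p = 0.978 in limma, 0.289 with the replicate block), and by 1.02, 0.64, 0.76 and 0.35 at the 4 times, a slope of -0.40 ± 0.39 per 60 min. It was higher in C than in A by 1.21 ± 0.27 (adjusted p = 0.00276 in limma). Of 19 measured markers of the male germline, 9 were below the array median on every array and 2, mia and twe, were above it on every array. Their summed intensity was 896 to 1711 in the controls and 639 to 1818 in the irradiated arrays. That sum rested largely on twe (203 to 1373) and mia (81.5 to 474), so it is not read as a measure of male germline RNA. No other marker of the list exceeded the 81.4 of Mst98Ca. The defining marker betaTub85D, the testis beta-tubulin, read 4.72 to 60.9.

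**Figure D5:**
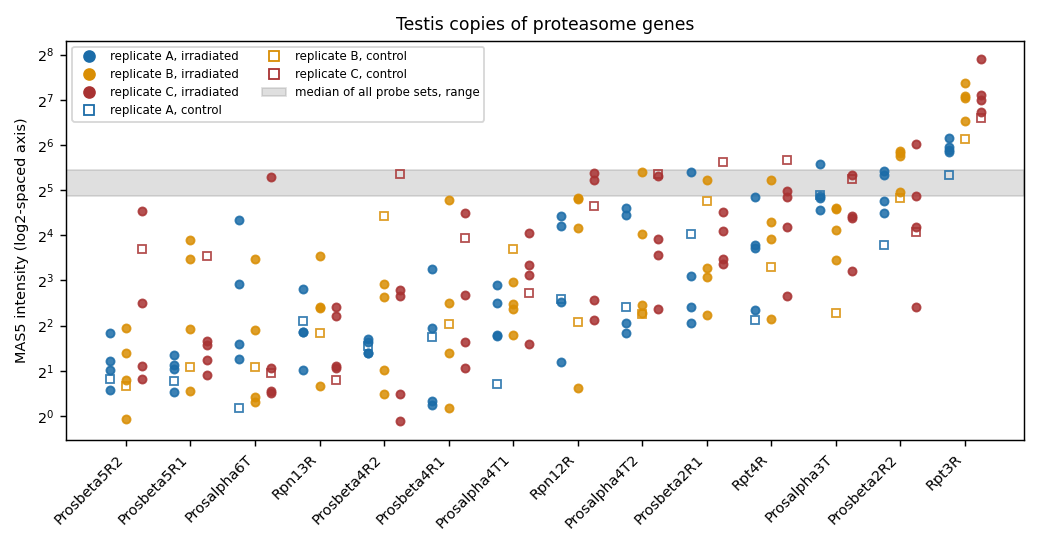
MAS5 intensity of the 14 testis copies on each of 15 arrays, on an axis spaced by log2, ordered by mean; squares are controls, circles irradiated arrays and colours the replicate letters, and the grey band is the range of the array medians (29.0 to 43.3). Most points lie below the band, and Rpt3R is the only gene with every point above it, apart from control A, which lies within it.

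None of the tested genes that work with the proteasome passed the test after irradiation. Of 10 tested regulators and assembly factors, 5 transcriptional regulators, 6 ubiquitin and conjugation genes, 5 genes of the p97 unfoldase and its cofactors and 8 subunits of the COP9 signalosome, a relative of the lid that acts on cullin ligases, 0 were called in the pooled irradiated groups by limma, and 2 (Ubi-p5E and Usp14) had an unadjusted p under 0.05. The polyubiquitin gene Ubi-p5E had the largest difference of these lists. It read 4631, 3359.8 and 3240.0 in controls A, B and C, 2237, 1578 and 1005 at 5 min, 4479, 1532 and 1013 at 30 min, 2694, 957 and 1129 at 60 min, with 3593, 743 and 910.2 90 min after exposure. Every irradiated array was below its same-letter control, as were those of 1.89% of all probe sets tested. Ubi-p5E differed by -1.26 ± 0.51 (unadjusted p = 0.0266, adjusted p = 0.978 in limma, 0.0791 with the replicate block). Ubi-p63E, the other polyubiquitin gene, differed by -0.56 ± 0.26 and the cap deubiquitinase gene Usp14 by -0.66 ± 0.30, with the same adjusted p without the block. The probe sets of Ubi-p63E, PI31, cnc, Keap1 and CSN8 also carry the suffix for shared probes, so their values are less certain.

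Other values in that contrast were 0.42 ± 0.25 for Pomp, a chaperone of core assembly, -0.45 ± 0.30 for the shuttle gene rngo, 0.79 ± 0.43 for the conjugating enzyme gene ben, and 0.48 ± 0.25 for maf-S, which encodes a partner of the stress factor encoded by cnc. The gene maf-S read 3434, 4396 and 4539 in controls A, B and C, 4818, 5921 and 6863 at 5 min, 3679, 5869 and 7249 at 30 min, 4379, 6634 and 7222 at 60 min, with 3968, 7507 and 6429 90 min after exposure. All irradiated arrays were above their same-letter controls, but the groups overlapped, and its adjusted p was 0.978 in limma and 0.123 with the replicate block. Pngl, the glycanase that acts on that stress factor in mammals, differed by -0.37 ± 0.32 and cnc itself by 0.28 ± 0.63. Among p97 genes the smallest unadjusted p were those of Npl4 (-0.58 ± 0.36), Ufd1 (-0.59 ± 0.45) and casp (-0.43 ± 0.73), and among signalosome genes those of CSN8 (0.48 ± 0.28), CSN1b (0.30 ± 0.20) and CSN7 (0.40 ± 0.29).

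Between letters C and A, 9 of 10 regulators and assembly factors were called, 4 of 5 transcriptional regulators, 4 of 6 ubiquitin genes, 3 of 5 p97 genes and 5 of 8 signalosome genes, beside a background of 45.6% of all probe sets and 70.8% of the bright ones. The activator gene REG (0.92), the chaperone gene Pomp (0.59), PI31 (0.59), the deubiquitinase gene Uch-L5 (0.36), maf-S (0.66), Ubc7 (0.67) and TER94, the p97 unfoldase itself (0.82), were higher in C, as were p47 (1.16), CSN4 (1.07), CSN5 (0.36), CSN7 (0.84) and CSN8 (0.81). The shuttle gene Rad23 (-2.48), the conjugating enzyme genes Ubc6 (-2.48) and vih (-1.57), Ubi-p5E (-1.41), casp (-2.15), Dref (-1.54), which encodes a factor that binds the DNA replication-related element, cnc (-1.36) and its inhibitor gene Keap1 (-0.997) were lower, as were ntc (-1.06), Usp14 (-0.75), rngo (-0.66), CG8858 (-1.42) and CSN3 (-0.59). Between letters B and A, 0 of 10, 2 of 5, 3 of 6, 0 of 5 and 2 of 8 of these lists, in the same order, were called, beside 14.7% of all probe sets and 20.4% of the bright ones. They were maf-S (0.57), Pngl (-0.85), Ubi-p5E (-1.26), Ubc6 (-1.33), Ubc7 (0.44), CSN7 (0.61) and CSN8 (0.62), where a negative value means lower in B.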

How the data were processed

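The authors deposited intensity values in 1 table. Per the submitters' processing notes they came from MAS5, with a version not given in the sources used here, and the deposited scaling was kept: the mean after trimming 2% at either end was 500.01 to 500.02 on every array. Per the labels' protocols, total RNA was primed with oligo(dT) and biotin-labelled cRNA was hybridized, 1 array per sample. The deposited intensities were taken to log2(intensity + 1), so differences understate changes of dim probe sets. The platform annotation gave 13646 of 18952 probe sets 1 symbol, 402 several and 4904 none; 183 were controls. The filter removed controls and probe sets whose mean log2 value was under the 40th percentile, which left 11261. Detection calls were not used here.

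Each kept probe set was modelled by group over the 15 arrays in limma 3.58.1 (R 4.3.3), using lmFit and eBayes with trend. P-values were two-sided, adjusted by Benjamini-Hochberg over all kept probe sets, and called at 0.05. The slope was per 60 min over the 4 times. Letters were compared in a fit with group and letter. The fits were also run on simulated arrays drawn independently and without shared letter effects. That run cannot show that the p-values hold for these arrays. Same-letter arrays deviated together with control (correlations for A, B and C of 0.465, 0.402 and 0.665 for 5 min, 0.217, 0.375 and 0.629 for 30 min, 0.484, 0.266 and 0.607 for 60 min), so the letters pair these groups. At 90 min the values were 0.501, -0.299 and 0.311, so the letter did not pair 90 min B with its control. The labels call the replicates biological without naming separate cages or days, so p-values measure only the spread between these arrays, whose number limits the precision.

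Named genes were up to 4 members in each direction with the smallest p per comparison with control, up to 6 per letter comparison, Prosbeta2, Prosbeta5, Rpn11, all testis copies and the partner lists, of which genes past the threshold or the 3 with the smallest p were named. Other members were then described by role, chosen after their values were seen. The members and lists were chosen with earlier results of these data known. Alternatives were pseudocount, filter, quantile normalization, the letter as a block, the spike-in level as a covariate and leaving out each array. Settings without 3 arrays, without 60 and 90 min B, and with the maternal level as a covariate were added after seeing the data. Sequences, and the partner genes Ubqn, Ecm29, Uba1, eff and Ubc4, were not analysed here.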

Additional observations from a re-analysis of the deposited data

How the results depend on the processing

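With the letter as a replicate block (paired arrays), as a random replicate block, or as a block with quantile normalization, 0 of 29 members were called for irradiated against control in any of the 7 comparisons, as without it, and the same held for the other settings tried. The replicate block with quantile normalization called 19 of all probe sets and no member. Between letters C and A the count of called members was 18 to 23 when single arrays were left out and 0 with the spike-in level as a covariate, where Prosbeta2 turned to 0.0305 and Rpn11 to -0.18. Between B and A it was 1 without the filter, 5 with quantile normalization, 1 with the spike-in level as a covariate and 1 to 8 when single arrays were left out. Of 3 settings chosen after the data were seen, it was 8 without control A, control C and 90 min B, 1 without 60 and 90 min B and 17 with the maternal marker level as a covariate. The cause was not tested. The core median for irradiated against control lay between -0.11 and 0.33 when single arrays were left out, and the cap median between -0.51 and -0.02. Where controls A and C are both left out, control B is assumed to vary like the other groups. Using all probe sets of a gene could not be run as a separate setting, because each member had 1. Values near the background, as in most testis copies, limit what their differences show.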
